A study of Mus musculus with 18 samples.

Results

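Interferon-stimulated genes are the genes that a cell switches on when it senses an interferon. A named list of 49 mouse genes of this kind was followed through naive CD4+ T cells whose adaptor protein LAT had been deleted or point-mutated. A gene's probe was found through the RefSeq accession that the array design gives it, and the brightest probe over 18 arrays stood for the gene. By this rule 46 of the 49 genes were measured, out of 17048 named genes tested. No probe carried an accession of Herc6, Mx1 or Dtx3l. All 46 were well above background and had a value on each of the 18 arrays.

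LAT is a membrane adaptor that passes the signal of the T cell receptor to enzymes inside the cell. Y136F exchanges a LAT tyrosine that binds phospholipase C gamma 1, so that part of the relay is lost. All mice were C57BL/6 and all received tamoxifen, for 1 or 4 weeks, which activates an inducible Cre recombinase. In the sample titles, WT mice were Cre-negative LAT f/-, LAT KO mice were Cre-positive LAT f/- and Y136F mice were Cre-positive LAT f/m. The series design instead describes all mice as Cre-positive and the point mutants as LAT Y136F/-. Splenic CD44low CD4+ cells were sorted from 3 mice in each of the 6 groups and hybridised to 1-colour Agilent arrays. Sex was not balanced in the labels. Every Y136F mouse was female and every 4-week mouse of the WT and LAT KO groups male, and at 1 week the WT and the LAT KO group each held 2 females and 1 male.

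Type I interferons bind the receptor IFNAR1/IFNAR2, which activates the kinases JAK1 and TYK2 and the factor ISGF3, a complex that holds STAT2 and IRF9. ISGF3 binds the interferon-stimulated response element in the promoters of these genes. Interferon gamma uses another receptor and acts through gamma-activated sites. The products detect viral RNA, degrade it, block viral entry or translation, present antigen, or dampen the response itself, and T cells carry a basal level of them without infection.

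The response element was looked for in RefSeq promoter windows of build GRCm38.p6, each holding 250 bases before and 50 bases after a transcription start. Windows were at hand for 39 of the 49 genes. A pair of GAAA blocks with any 2 bases between them, on either strand and with overlaps counted, stood in the windows of 18 of these 39 genes (46.2%), against 3.99% of 27025 genes with a window. The letters TTCNNNGAA, which read the same on both strands and cover the core of a gamma-activated site, stood in 10 of 39 (25.6%), against 9.55%. A match is a description of letters and not evidence of binding. Because the members were listed as interferon-stimulated, the motif is a property of the list and not a result of these arrays. The 120 bases before the start of 5 genes are printed because those genes took different courses in the values given later. Matches to the GAAA pair, on the strand shown or as its reverse complement, are in capitals, and overlapping matches run together. The windows are chr4:156200819-156200938 on the minus strand for Isg15, chr19:34640769-34640888 on the plus strand for Ifit1, chr5:120777660-120777779 on the minus strand for Oas3, chr11:48871421-48871540 on the minus strand for Irgm1 and chr7:140955962-140956081 on the minus strand for Ifitm2.
Isg15: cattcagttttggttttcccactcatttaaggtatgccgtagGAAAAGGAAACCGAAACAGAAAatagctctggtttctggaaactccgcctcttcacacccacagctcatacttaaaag
Ifit1: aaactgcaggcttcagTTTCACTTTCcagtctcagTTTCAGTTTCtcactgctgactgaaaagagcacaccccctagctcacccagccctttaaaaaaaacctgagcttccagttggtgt
Oas3: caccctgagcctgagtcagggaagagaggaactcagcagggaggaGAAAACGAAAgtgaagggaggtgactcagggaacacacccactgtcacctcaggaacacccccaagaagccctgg
Irgm1: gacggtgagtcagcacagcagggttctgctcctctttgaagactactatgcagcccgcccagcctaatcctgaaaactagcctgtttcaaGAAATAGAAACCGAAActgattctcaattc
Ifitm2: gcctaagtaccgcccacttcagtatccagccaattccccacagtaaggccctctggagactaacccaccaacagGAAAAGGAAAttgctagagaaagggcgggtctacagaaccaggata
Counted from the start, the first match begins at base -78 in Isg15, -104 in Ifit1, -75 in Oas3, -30 in Irgm1 and -46 in Ifitm2. Isg15 holds 3 overlapping matches, Ifit1 and Irgm1 hold 2 each, and Oas3 and Ifitm2 hold 1 each.

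Values are log2 signal minus the 75th percentile of the same array, so that 0 is the level of that percentile. Levels are compared between arrays for one gene and never between genes. Each of the 18 arrays held 43379 spots, of which 84.2% to 97.9% were well above background. Outlier spots, which were left out, numbered 7888 on LAT KO replicate 3 of 1 week and 187 to 952 on the other arrays. Shares of features whose groups do not overlap cover only features with a value on every array compared. For LAT KO minus WT these were 25494 features at 1 week and 30541 at 4 weeks. Lat itself read 2.75, 3.47 and 3.37 in WT, 2.32 and 2.73 in LAT KO (with no value on replicate 2) and 4.26, 4.17 and 4.32 in Y136F at 1 week. At 4 weeks Lat read 3.29, 3.62 and 3.85 in WT, 3.16, 2.62 and 2.34 in LAT KO and 4.43, 3.86 and 3.93 in Y136F. LAT KO arrays with a value lay below and Y136F arrays above all WT arrays of their time. At 4 weeks the Lat difference from WT was -0.88 ± 0.23 in LAT KO (adjusted p = 0.217) and 0.48 ± 0.23 in Y136F (adjusted p = 0.318), and neither passed. Whether the Lat probe lies in the deleted stretch was not tested. Naive CD4 T cell markers, among them Cd3e, Cd4 and Ccr7, were well above background on all arrays for 14 of 14 genes. Sex-linked genes went against the label on LAT KO 1-week replicate 1 (labelled female) and LAT KO 4-week replicate 2 (labelled male). Both belong to LAT KO and are the 2 arrays meant below. The medians and counts of members, and the adjusted p of each LAT KO call, are also given from a fit without them. Shares of all features called or not overlapping are not given for that fit, nor for fits with 1 array left out. With fewer arrays a gap is easier to reach, so the shares from all arrays do not apply to those counts. The log2 summed signal of 11 B cell markers was 5.17 on the first of the 2 arrays, beside 4.60 and 4.40 on LAT KO 4-week replicates 1 and 3. It was 2.85 on the second, beside 2.96 and 2.70 on LAT KO 1-week replicates 2 and 3. Whether the 2 arrays were exchanged between the times was not tested.

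In both mutants most of the members read above WT at 1 week and at 4 weeks. At 1 week 45 of 46 members had a positive difference in LAT KO and 45 of 46 in Y136F, while 41.6% and 33.3% of all features tested did. In LAT KO without the 2 arrays 44 of 46 were positive, beside 54% of all features, with a median of 0.61. Among the members, the median difference from WT was 0.62 in LAT KO and 0.8 in Y136F on the log2 scale, beside -0.05 and -0.12 over all features. At 4 weeks the median was 0.92 in LAT KO, with 42 of 46 positive against 34.7% of all features, and 0.38 in Y136F, with 41 of 46 positive against 32.3%. That LAT KO median was, without the 2 arrays, 0.79, with 43 positive beside 37%. The medians over all features were -0.17 and -0.19. The 2 mutants of a time were measured against the same 3 WT arrays, so these pairs of values are not independent. By the sample titles every mutant mouse and no WT mouse carried Cre. Under those titles the LAT change and the presence of Cre cannot be told apart in any mutant minus WT comparison. In bulk RNA, a change in the share of cells that carry a transcript and a change in its amount per cell cannot be told apart.

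**Figure D1:**
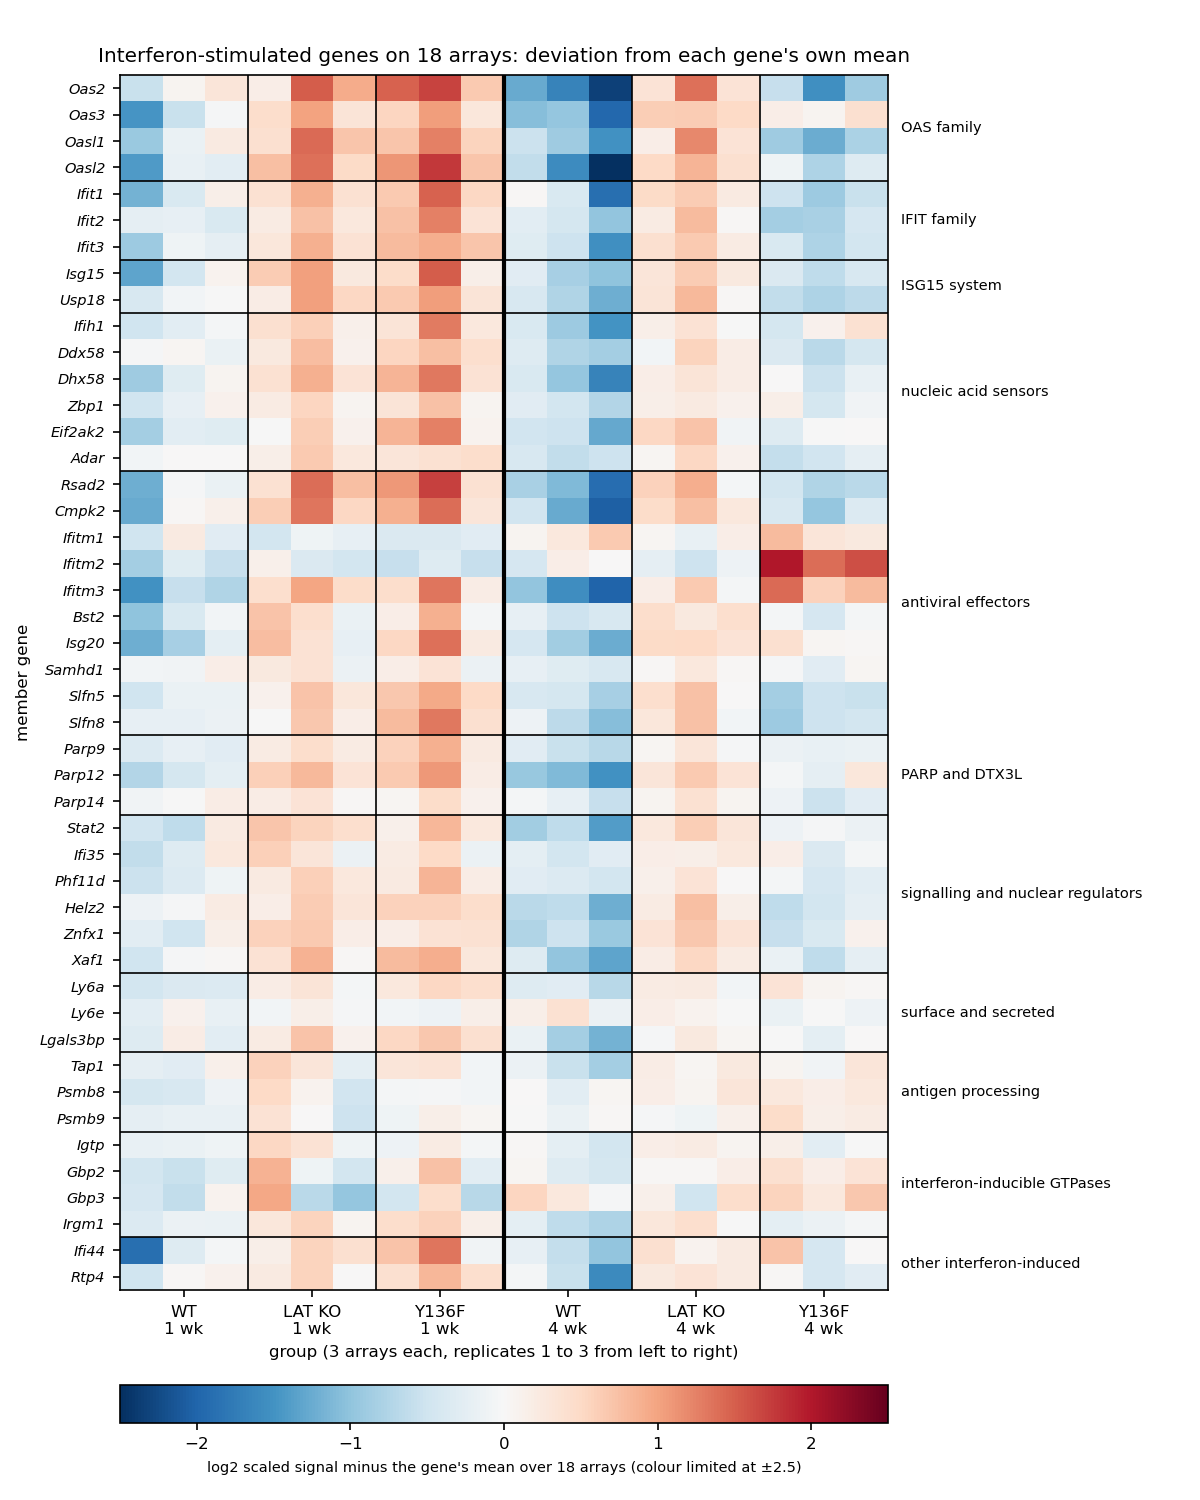
Heat map of the 46 measured interferon-stimulated genes (rows, by role) on 18 arrays (columns, 3 per group), coloured by log2 scaled signal minus the gene's own mean over the arrays. WT columns are mostly blue, LAT KO columns and the 1-week Y136F columns mostly red, and the 4-week Y136F columns are mostly pale or blue, with their deepest red at Ifitm2 and Ifitm3.

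Averaged over the 46 members, the deviation from each gene's own mean was -0.63, -0.23 and -0.078 on the WT arrays and 0.351, 0.604 and 0.122 on the LAT KO arrays at 1 week. The Y136F arrays of that time read 0.421, 0.835 and 0.196. At 4 weeks the WT arrays read -0.341, -0.604 and -1.01, the LAT KO arrays 0.231, 0.432 and 0.156 and the Y136F arrays -0.0632, -0.317 and -0.0774. All mutant arrays lay above all WT arrays of their time. At 1 week the mutants overlapped each other, and at 4 weeks all 3 LAT KO arrays lay above all 3 Y136F arrays. WT replicate 3 at 4 weeks was the lowest of the 18 arrays and WT replicate 1 was the lowest of the 1-week arrays. Gene by gene, WT replicate 1 was the lowest 1-week array for 36 of 46 members and WT replicate 3 the lowest 4-week array for 36. The highest array was Y136F replicate 2 for 29 members at 1 week and LAT KO replicate 2 for 32 at 4 weeks. The latter is one of the 2 arrays that went against their sex label.

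Gene by gene, limma's moderated test with Benjamini-Hochberg adjustment over all features called no member at 1 week in either mutant. The share of all features called higher at that time was 0% in LAT KO and 0.00317% in Y136F. The smallest adjusted p of a member was 0.314 for Ifitm3 in LAT KO and 0.106 for Parp9 in Y136F. Before adjustment, 33 members in LAT KO and 35 in Y136F had p under 0.05 and a higher value, where 0.949% and 2.96% of all features did. None had a lower one, where 1.91% and 3.07% of all features did. The 3 mutant arrays lay entirely above the 3 WT arrays for 28 members in LAT KO, where 0.957% of all features did, and for 34 in Y136F, where 4.47% did. No member lay entirely below, against 2.76% and 6.14% of all features. In LAT KO 31 members lay above WT and none was called without the 2 arrays. A share of all features for that smaller set of arrays is not given.

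At 4 weeks 7 members were called higher in LAT KO: Oas2, Oas3, Ifitm3, Parp12, Stat2, Helz2 and Znfx1. The background share called higher was 0.0571% (18 of 31520 features, these 7 among them). In Y136F 5 members were called higher, namely Oas3, Ifitm2, Ifitm3, Parp12 and Ly6a, where 2.47% of all features were (779 of 31498). No member was called lower in either mutant, beside 0.0412% of all features in LAT KO and 0.918% in Y136F. LAT KO arrays lay entirely above WT for 40 members, against 9.4% of all features, and Y136F arrays for 15, against 9.37%. None lay entirely below WT, where 13.8% of all features did in LAT KO and 16.7% in Y136F. Leaving out an array makes a gap easier to reach, and the Y136F number was 29 without WT replicate 1 and 28 without Y136F replicate 2. The LAT KO calls at this time rest on few arrays. Their number was 0 without WT replicate 3 or without LAT KO replicate 2, 1 without LAT KO replicate 1, 3 without LAT KO replicate 3, 4 without WT replicate 2 and 0 without both arrays whose sex-linked genes went against their label. The LAT KO arrays that remained then lay entirely above WT for 40 members, and the share of all features is not given for them. The Y136F calls at 4 weeks numbered 3 without WT replicate 3 and 9 without WT replicate 1. They numbered 2 with the labelled sex as a term and 3 with the sex read from the arrays, a term added after seeing the data. Only the WT and LAT KO groups of 1 week hold both labelled sexes, so the labelled-sex term is estimated from those groups. LAT KO replicate 1 of 1 week, which went against its label, is among them.

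Over the mean of both times, 21 members were called higher in LAT KO, where 0.188% of all features were, and 15 in Y136F, where 1.24% were. No member was called lower in either, beside 0.127% and 0.543%. Among the members, the median difference was 0.78 in LAT KO, beside -0.09 over all features, and 0.58 in Y136F, beside -0.15. In LAT KO 13 members were called without the 2 arrays, and the median was 0.72. The LAT KO number fell to 9 or 10 without WT replicate 1 or LAT KO replicate 2 of 1 week or without WT replicate 3 or LAT KO replicate 2 of 4 weeks, and to 13 without WT replicate 2 or LAT KO replicate 1 of 4 weeks. It was 9 with slide as a fixed term and 9 with only the groups compared in the fit. The Y136F number fell to 8 or 9 without Y136F replicate 2 of 1 week, WT replicate 3 of 4 weeks or Y136F replicate 2 or 3 of 4 weeks. It was 1 with the labelled sex as a term and 6 with the sex read from the arrays. Because all Y136F mice were labelled female and all 4-week WT mice male, genotype and labelled sex cannot be told apart in that comparison at 4 weeks.

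**Figure D2:**
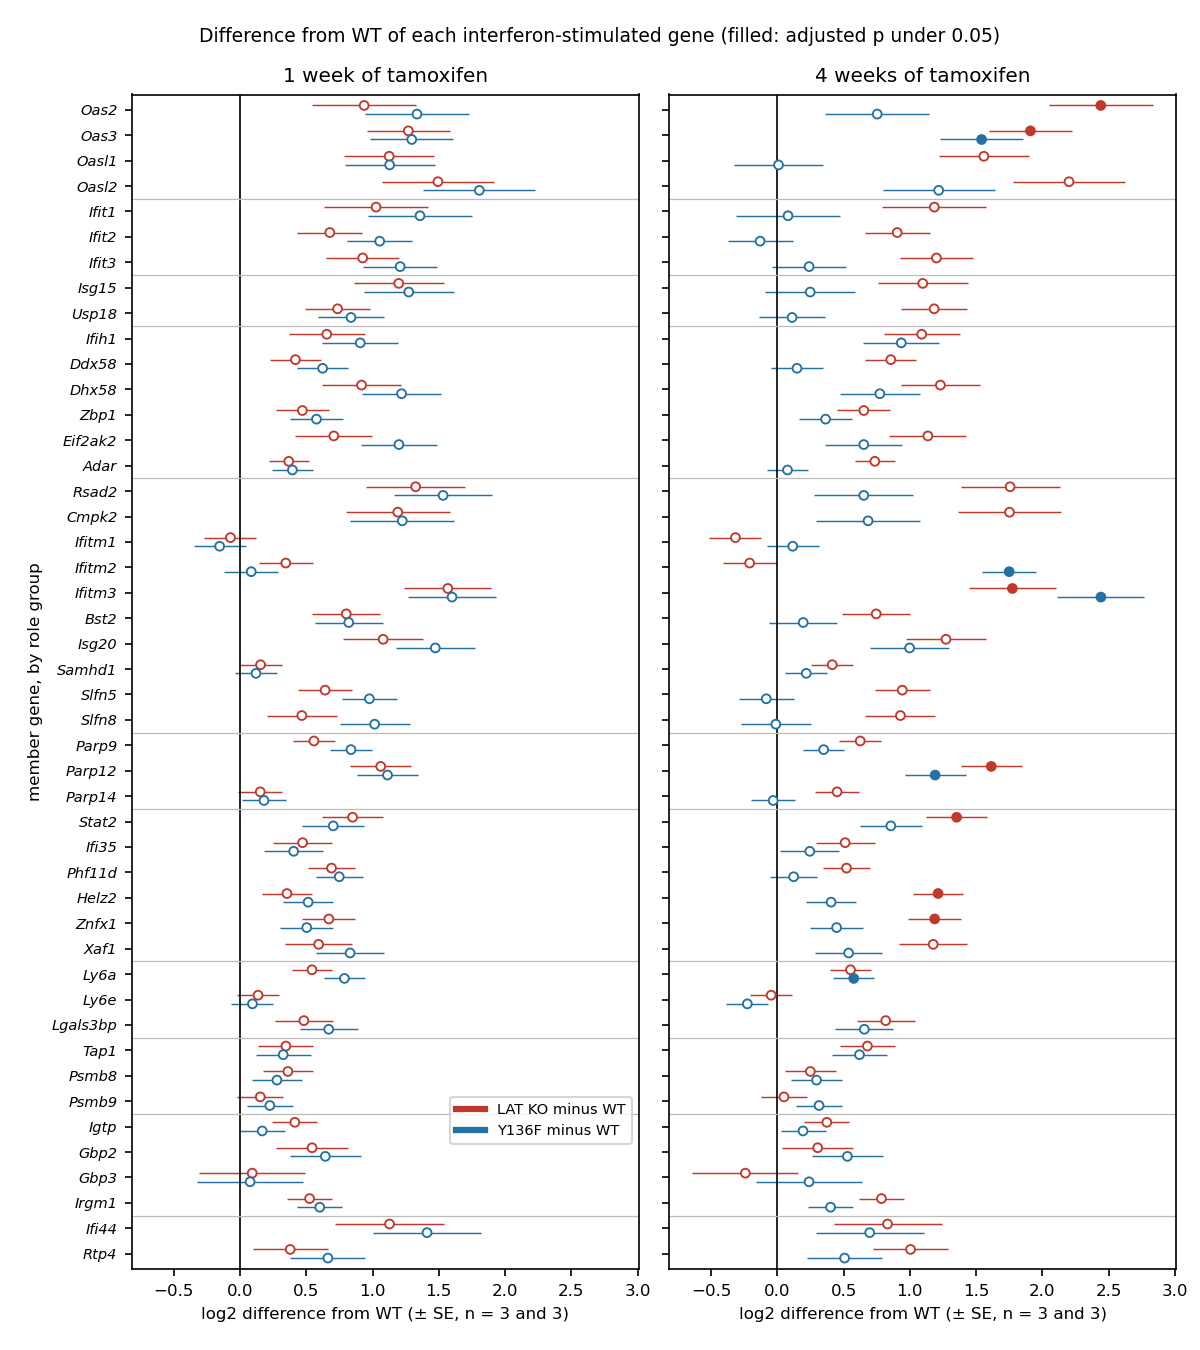
Log2 difference from WT with its standard error for each of the 46 genes, LAT KO in red and Y136F in blue, at 1 week (left) and 4 weeks (right), from 3 arrays per group. Filled points passed limma's test at an adjusted p under 0.05; at 4 weeks 7 red and 5 blue points are filled, and at 1 week none is.

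The oligoadenylate synthetase family makes the second messenger that activates RNase L, though not all of its members have that activity. The median difference of the 4 measured genes of the family from WT was 1.2 in LAT KO and 1.31 in Y136F for week 1. For week 4 it was 2.06 and 0.99. Over the mean of both times 4 were called higher in LAT KO and 2 in Y136F. Beside such counts of a role group, here and below, stand 0.188% and 1.24% of all features. Without the 2 arrays the LAT KO medians were 1.34 and 1.98, and 4 were called higher. At 1 week Oas3 read 1.48, 2.4 and 2.93 in WT, 3.39, 3.95 and 3.28 in LAT KO and 3.48, 3.99 and 3.23 in Y136F. At 4 weeks Oas3 read 1.88, 1.99 and 0.99 in WT, 3.56, 3.59 and 3.44 in LAT KO and 3.11, 3.02 and 3.35 in Y136F. Every mutant array lay above every WT array of its time. At 1 week the difference, given with its SE here and below, was 1.27 ± 0.31 in LAT KO and 1.3 ± 0.31 in Y136F, and neither passed. At 4 weeks it was 1.91 ± 0.31 in LAT KO (3.76-fold, adjusted p = 0.0178, 0.0953 without the 2 arrays) and 1.54 ± 0.31 in Y136F (2.91-fold, adjusted p = 0.00805), and both passed.

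Oas2 separated the mutants at 4 weeks. Its 1-week values were -2.05, -1.43 and -1.19 in WT, -1.33, 0.02 and -0.56 in LAT KO and -0.02, 0.19 and -0.84 in Y136F. Those at 4 weeks were -2.75, -3.16 and -3.83 in WT, -1.14, -0.12 and -1.15 in LAT KO and -2.07, -3.03 and -2.38 in Y136F. All LAT KO arrays of 4 weeks lay above WT, whereas the Y136F arrays overlapped WT. Oas2 rose in LAT KO at 4 weeks by 2.44 ± 0.39 (5.43-fold, adjusted p = 0.0178, 0.0578 without the 2 arrays), and LAT KO was higher than Y136F by 1.69 ± 0.39 (adjusted p = 0.0209, 0.0801 without the 2 arrays). The Y136F difference of 0.75 ± 0.39 had an adjusted p of 0.35.

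Oasl1 and Oasl2 were called in LAT KO over the mean of both times. At 1 week Oasl1 read -0.82, -0.05 and 0.34 in WT, 0.51, 1.52 and 0.81 in LAT KO and 0.81, 1.38 and 0.66 in Y136F. At 4 weeks Oasl1 read -0.42, -0.78 and -1.41 in WT, 0.28, 1.32 and 0.46 in LAT KO and -0.78, -1.13 and -0.68 in Y136F, so that Y136F and WT overlapped and LAT KO stood above both. LAT KO exceeded Y136F by 1.55 ± 0.34 (adjusted p = 0.0134, 0.0721 without the 2 arrays), and the Y136F difference from WT was 0.01 ± 0.34. At 1 week Oasl2 read -0.43, 0.79 and 0.72 in WT, 1.74, 2.36 and 1.47 in LAT KO and 2.09, 2.75 and 1.67 in Y136F. At 4 weeks Oasl2 read 0.37, -0.59 and -1.68 in WT, 1.48, 1.83 and 1.39 in LAT KO and 0.88, 0.21 and 0.66 in Y136F, with WT replicate 3 lowest. Oasl2 rose over the mean of both times in LAT KO (1.85 ± 0.3, adjusted p = 0.00826, 0.0373 without the 2 arrays) and in Y136F (1.51 ± 0.3, adjusted p = 0.0144).

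The IFIT proteins bind viral RNA that lacks the host cap structure and hold back its translation. For the 3 IFIT genes the median differences from WT were 0.92 in LAT KO and 1.21 in Y136F after 1 week. After 4 weeks they were 1.19 and 0.08. Over the mean of both times all 3 were positive in each mutant, and 1 in LAT KO and 0 in Y136F were called higher. The LAT KO medians without the 2 arrays were 1.04 and 1.08, and 0 were called higher, with all 3 still positive over both times. At 1 week Ifit3 read 3.96, 4.77 and 4.65 in WT, 5.17, 5.76 and 5.24 in LAT KO and 5.66, 5.79 and 5.56 in Y136F. At 4 weeks Ifit3 read 4.58, 4.36 and 3.34 in WT, 5.27, 5.54 and 5.08 in LAT KO and 4.49, 4.1 and 4.41 in Y136F. The 1-week mutants and the 4-week LAT KO arrays lay above WT with no overlap, and the 4-week Y136F arrays lay within the WT range. The LAT KO difference was 0.92 ± 0.28 at 1 week and 1.2 ± 0.28 at 4 weeks, and over the mean of both times it passed (1.06 ± 0.2, adjusted p = 0.019, 0.0623 without the 2 arrays). In Y136F it was 1.21 ± 0.28 at 1 week and 0.24 ± 0.28 at 4 weeks (adjusted p = 0.181 and 0.665). Without WT replicate 3 of 4 weeks the latter value was -0.14.

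Ifit2 was the IFIT gene called between the mutants. At 1 week Ifit2 read 1.55, 1.57 and 1.39 in WT, 1.98, 2.52 and 2.05 in LAT KO and 2.52, 3.04 and 2.12 in Y136F. At 4 weeks Ifit2 read 1.52, 1.35 and 0.8 in WT, 1.99, 2.57 and 1.82 in LAT KO and 0.93, 0.97 and 1.37 in Y136F. The difference of LAT KO from Y136F at 4 weeks passed (1.04 ± 0.24, adjusted p = 0.0224, 0.14 without the 2 arrays), while the Y136F difference from WT was -0.13 ± 0.24. Ifit1, whose promoter window is printed above, differed from WT by 1.03 in LAT KO and by 1.36 in Y136F at 1 week. At 4 weeks its differences were 1.19 and 0.08. For all 3 IFIT genes LAT KO arrays lay entirely above Y136F arrays at 4 weeks, where 12.7% of all features did.

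**Figure D3:**
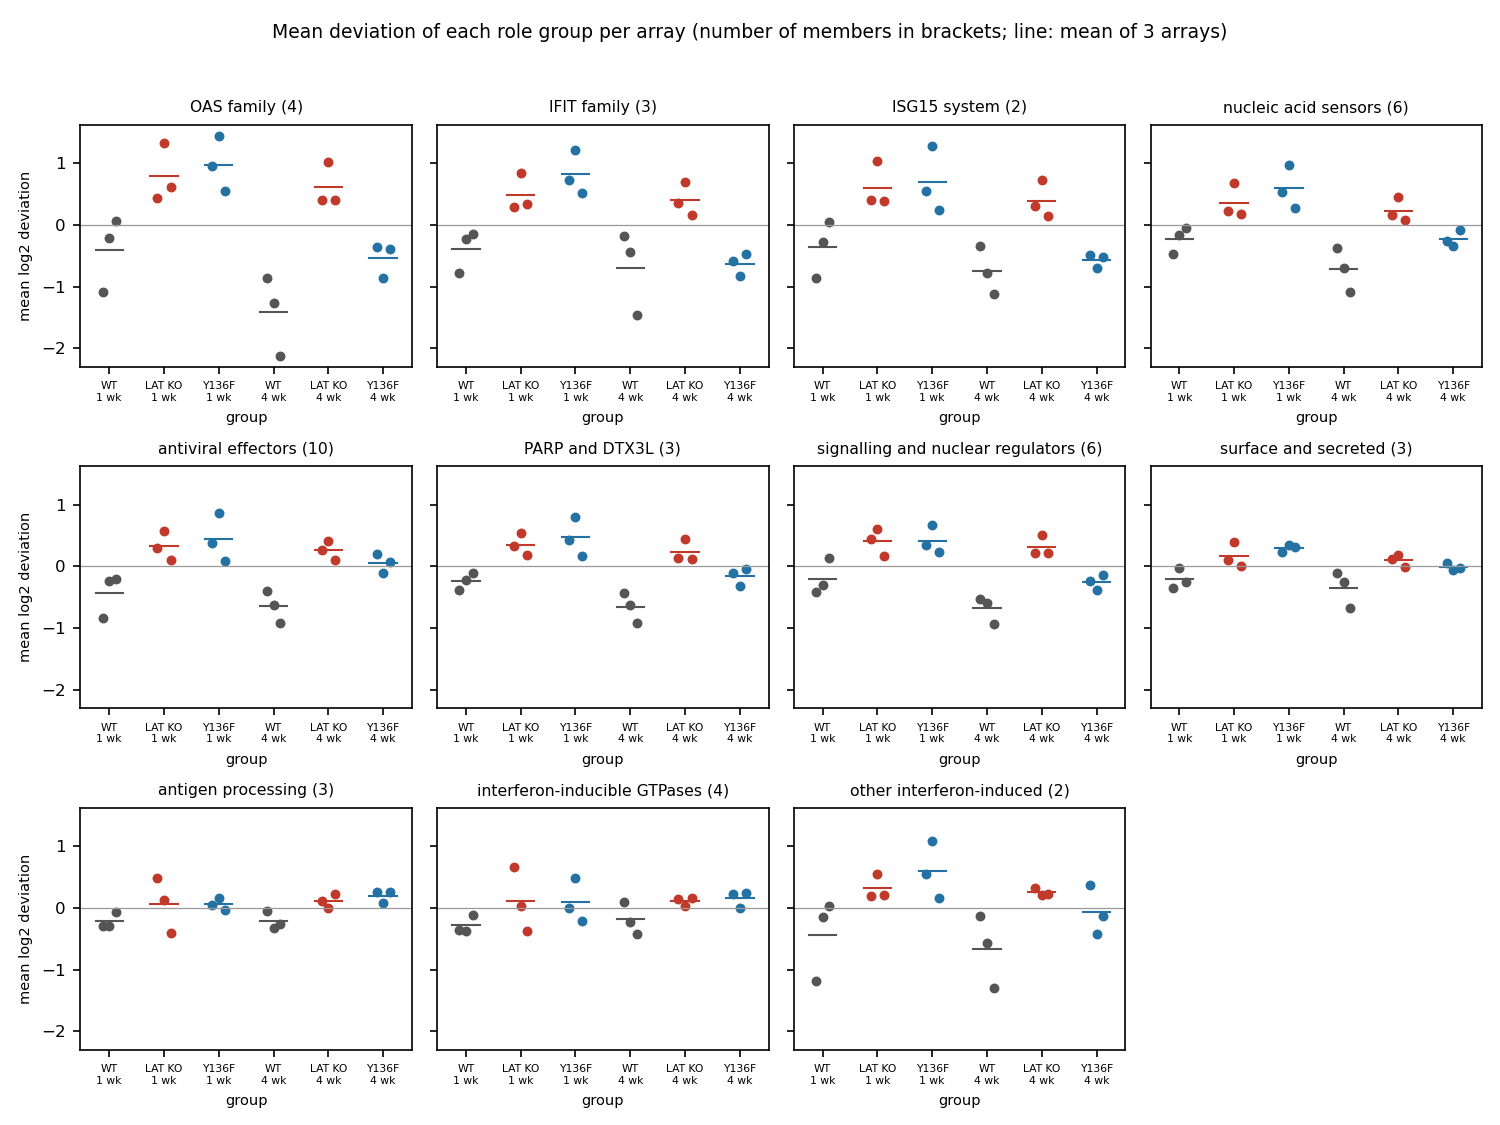
Mean log2 deviation from each gene's own mean for the measured members of each role group, one point per array and a line at the mean of 3 arrays; the number of members is in brackets. In the OAS, IFIT and ISG15 groups the 4-week Y136F arrays sit below 0 and LAT KO arrays above 0, while antigen processing genes stay between -0.406 and 0.477 and GTPases between -0.428 and 0.663 on all arrays.

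ISG15 is a ubiquitin-like protein that is joined to target proteins, and USP18 removes it and also blocks the interferon receptor. The median difference of the 2 genes of this system from WT was 0.97 in LAT KO and 1.05 in Y136F for week 1. For week 4 it was 1.14 and 0.18. Over the mean of both times both genes were positive in each mutant, and 1 in LAT KO and 0 in Y136F were called higher. Without the 2 arrays the LAT KO medians were 1.07 and 0.97, and 1 was called higher. At 1 week Isg15 read -0.5, 0.35 and 0.92 in WT, 1.45, 1.85 and 1.07 in LAT KO and 1.28, 2.34 and 0.97 in Y136F. At 4 weeks Isg15 read 0.53, -0.01 and -0.18 in WT, 1.11, 1.45 and 1.06 in LAT KO and 0.47, 0.18 and 0.42 in Y136F. At 1 week both mutants lay above WT without overlap, and at 4 weeks only the LAT KO arrays did. None of the Isg15 differences passed: they were 1.2 ± 0.34 and 1.1 ± 0.34 in LAT KO, and 1.27 ± 0.34 and 0.25 ± 0.34 in Y136F, at 1 and 4 weeks. At 1 week Usp18 read 1.88, 2.19 and 2.26 in WT, 2.45, 3.3 and 2.79 in LAT KO and 2.93, 3.31 and 2.6 in Y136F. At 4 weeks Usp18 read 1.86, 1.53 and 1.05 in WT, 2.59, 3.09 and 2.31 in LAT KO and 1.65, 1.5 and 1.62 in Y136F. Usp18 rose in LAT KO over the mean of both times (0.96 ± 0.17, adjusted p = 0.0185, 0.0242 without the 2 arrays) and was higher in LAT KO than in Y136F at 4 weeks by 1.07 ± 0.25 (adjusted p = 0.0189, 0.0812 without the 2 arrays). In Y136F the difference went from 0.84 at 1 week to 0.11 at 4 weeks, and the change with time did not pass (adjusted p = 0.585).

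**Figure D4:**
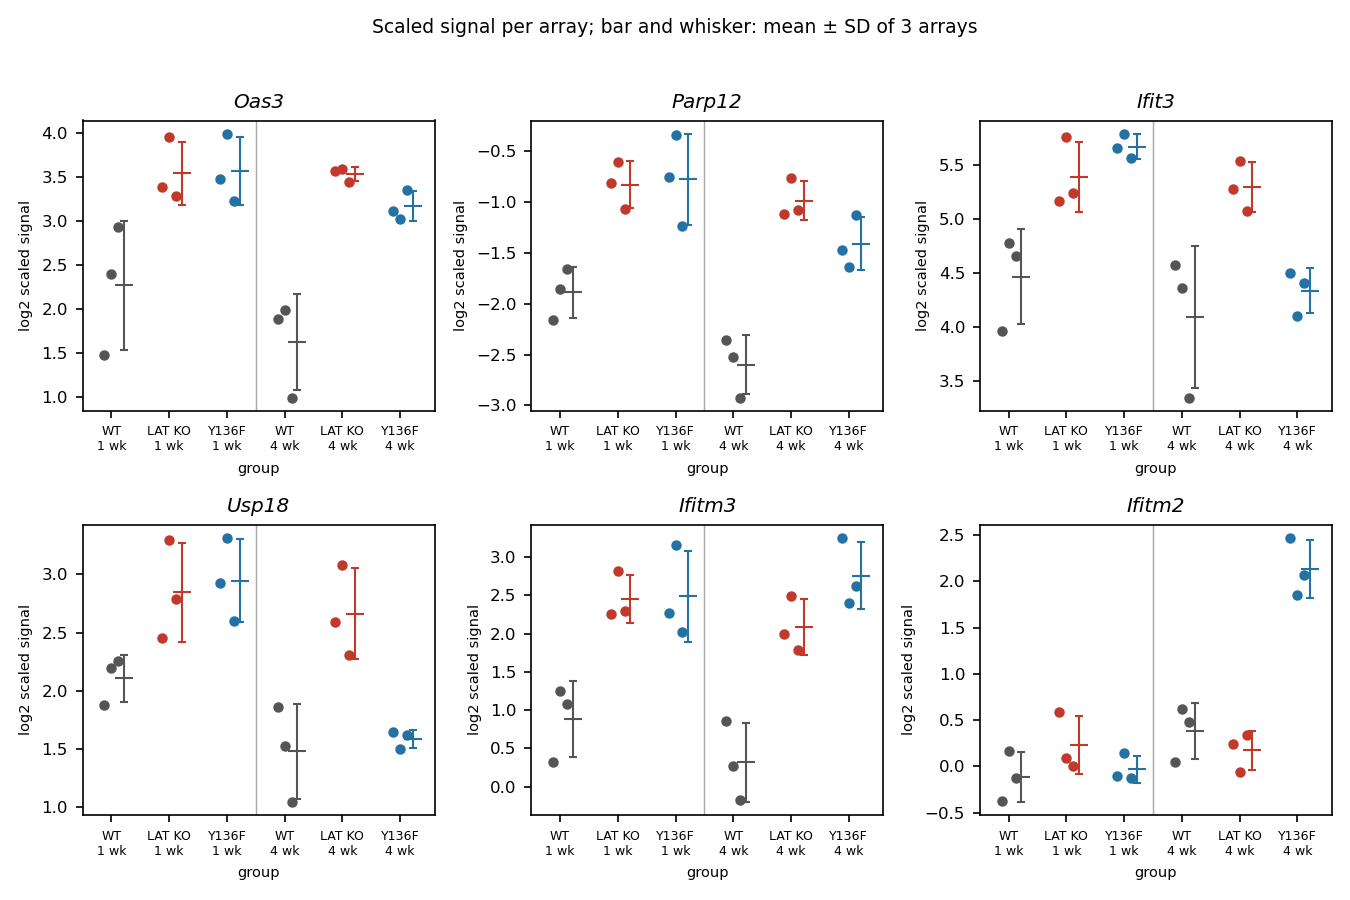
Log2 scaled signal of 6 members on each of the 18 arrays, WT in grey, LAT KO in red and Y136F in blue, with the mean and SD of 3 arrays beside the points. Oas3, Parp12 and Ifitm3 lie above WT in both mutants at both times, Ifit3 and Usp18 lie in the WT range in Y136F at 4 weeks, and Ifitm2 is high only on the 3 Y136F arrays of 4 weeks.

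Among the sensors, RIG-I (Ddx58), MDA5 (Ifih1) and LGP2 (Dhx58) recognise viral RNA, PKR (Eif2ak2) halts translation on double-stranded RNA, and ADAR1 (Adar) edits it. All 6 sensors had positive differences in both mutants at both times. For the 6 sensors the median differences from WT were 0.56 in LAT KO and 0.76 in Y136F after 1 week. After 4 weeks they were 0.97 and 0.51. Over the mean of both times 2 in LAT KO and 3 in Y136F were called higher. The LAT KO medians without the 2 arrays were 0.57 and 0.83, and 1 was called higher. At 1 week Dhx58 read -0.95, -0.36 and -0.01 in WT, 0.32, 0.82 and 0.28 in LAT KO and 0.79, 1.26 and 0.29 in Y136F. At 4 weeks Dhx58 read -0.45, -1.03 and -1.73 in WT, 0.11, 0.26 and 0.12 in LAT KO and -0.05, -0.6 and -0.24 in Y136F. Dhx58 rose over the mean of both times in LAT KO (1.07 ± 0.21, adjusted p = 0.0349, 0.106 without the 2 arrays) and in Y136F (1.0 ± 0.21, adjusted p = 0.0235). At 4 weeks all LAT KO arrays of Dhx58 were above WT, and Y136F overlapped it.

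Ifih1 and Eif2ak2 were called in Y136F over both times. At 1 week Ifih1 read 0.17, 0.39 and 0.6 in WT, 1.07, 1.27 and 0.8 in LAT KO and 0.99, 1.97 and 0.92 in Y136F. At 4 weeks Ifih1 read 0.29, -0.24 and -0.83 in WT, 0.81, 1.02 and 0.65 in LAT KO and 0.22, 0.76 and 1.04 in Y136F, and the Y136F array of replicate 1 fell within the WT range. The Y136F difference over both times was 0.92 ± 0.2 (adjusted p = 0.0284), beside 0.87 ± 0.2 in LAT KO (adjusted p = 0.105). At 1 week Eif2ak2 read 0.33, 0.9 and 0.87 in WT, 1.16, 1.79 and 1.27 in LAT KO and 2.01, 2.43 and 1.25 in Y136F. At 4 weeks Eif2ak2 read 0.68, 0.65 and -0.11 in WT, 1.69, 1.87 and 1.08 in LAT KO and 0.85, 1.15 and 1.18 in Y136F. Each mutant array of Eif2ak2 lay above WT at both times, and Y136F exceeded WT by 0.93 ± 0.2 over both times (adjusted p = 0.0284).

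Adar was among the called sensors. At 1 week Adar read 1.83, 1.91 and 1.89 in WT, 2.03, 2.53 and 2.16 in LAT KO and 2.2, 2.27 and 2.33 in Y136F. At 4 weeks Adar read 1.48, 1.28 and 1.36 in WT, 1.94, 2.39 and 1.99 in LAT KO and 1.28, 1.4 and 1.66 in Y136F. The 4-week LAT KO arrays lay above both other groups, and LAT KO exceeded Y136F by 0.66 ± 0.15 (adjusted p = 0.0189, 0.0862 without the 2 arrays). Over both times Adar rose in LAT KO by 0.55 ± 0.11 (adjusted p = 0.0303, 0.0373 without the 2 arrays). Ddx58 differed from WT by 0.86 in LAT KO and by 0.15 in Y136F at 4 weeks, and Zbp1, a sensor of Z-form nucleic acid, by 0.65 and 0.36. Neither passed in any comparison.

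The effectors include viperin (Rsad2) and its neighbour Cmpk2, which act on nucleotides that viruses need. The median difference of the 10 antiviral effectors from WT was 0.72 in LAT KO and 1.0 in Y136F for week 1. For week 4 it was 0.94 and 0.43. Over the mean of both times 9 were positive in each mutant, and 5 in LAT KO and 4 in Y136F were called higher. Without the 2 arrays the LAT KO medians were 0.69 and 0.79, and 3 were called higher. At 1 week Rsad2 read 0.5, 1.69 and 1.56 in WT, 2.11, 3.13 and 2.48 in LAT KO and 2.81, 3.43 and 2.11 in Y136F. At 4 weeks Rsad2 read 0.92, 0.62 and -0.18 in WT, 2.3, 2.64 and 1.69 in LAT KO and 1.27, 0.98 and 1.06 in Y136F. All mutant arrays lay above WT at both times, and at 4 weeks LAT KO lay above Y136F. Rsad2 rose over the mean of both times in LAT KO (1.54 ± 0.26, 2.91-fold, adjusted p = 0.0116, 0.0304 without the 2 arrays) and in Y136F (1.09 ± 0.26, 2.13-fold, adjusted p = 0.0423). At 1 week Cmpk2 read -0.2, 1.1 and 1.19 in WT, 1.67, 2.4 and 1.58 in LAT KO and 1.95, 2.45 and 1.37 in Y136F. At 4 weeks Cmpk2 read 0.59, -0.2 and -0.98 in WT, 1.53, 1.82 and 1.32 in LAT KO and 0.66, 0.09 and 0.72 in Y136F. Cmpk2 passed in LAT KO over both times (1.47 ± 0.28, adjusted p = 0.0231, 0.0833 without the 2 arrays), and its Y136F value of 0.95 ± 0.28 did not (adjusted p = 0.101).

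The 3 IFITM proteins sit in membranes and hinder viral fusion. At 1 week Ifitm3 read 0.33, 1.25 and 1.09 in WT, 2.25, 2.82 and 2.29 in LAT KO and 2.27, 3.17 and 2.03 in Y136F. At 4 weeks Ifitm3 read 0.85, 0.28 and -0.17 in WT, 2.0, 2.49 and 1.78 in LAT KO and 3.25, 2.4 and 2.63 in Y136F. All mutant arrays lay above all WT arrays at both times. The differences of 1.77 ± 0.33 in LAT KO (3.42-fold, adjusted p = 0.0489, 0.218 without the 2 arrays) and 2.44 ± 0.33 in Y136F (5.44-fold, adjusted p = 0.000427) at 4 weeks passed. At 1 week they were 1.57 ± 0.33 and 1.6 ± 0.33 and did not. The 4-week LAT KO call of Ifitm3 passed in 8 of 20 settings, with adjusted p up to 0.368, and the Y136F call in 20 of 20.

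Ifitm2 was high in 1 group alone. At 1 week Ifitm2 read -0.38, 0.16 and -0.12 in WT, 0.59, 0.09 and 0.01 in LAT KO and -0.11, 0.14 and -0.12 in Y136F, and the 3 groups overlapped. At 4 weeks Ifitm2 read 0.05, 0.62 and 0.47 in WT, 0.24, -0.06 and 0.34 in LAT KO and 2.47, 1.86 and 2.07 in Y136F, so that the Y136F arrays stood above every other array of the series. The Y136F difference from WT at 4 weeks was 1.75 ± 0.2 (3.36-fold, adjusted p = 0.00013), and LAT KO was lower than Y136F by -1.96 on the log2 scale (adjusted p = 4.66e-05, 0.000105 without the 2 arrays). The Y136F difference from WT changed between 1 and 4 weeks by 1.67 ± 0.29 (adjusted p = 0.0127), the 1 member for which a change with time passed, against 0.391% of all features. With the labelled sex as a term this change had an adjusted p of 0.0672 and did not pass. Another probe of Ifitm2 gave 3.67 for Y136F minus WT and 0.12 for LAT KO minus WT at 4 weeks. Probe sequences were not used here, so binding of related IFITM transcripts to one probe was not tested.

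Ifitm1 was not called in any comparison. At 1 week Ifitm1 read 0.99, 1.72 and 1.2 in WT, 1.03, 1.38 and 1.27 in LAT KO and 1.12, 1.12 and 1.19 in Y136F. At 4 weeks Ifitm1 read 1.55, 1.76 and 2.13 in WT, 1.53, 1.3 and 1.66 in LAT KO and 2.27, 1.78 and 1.73 in Y136F. Its differences from WT were -0.07 and -0.32 in LAT KO and -0.16 and 0.12 in Y136F at 1 and 4 weeks. Groups overlapped at both times except that the 4-week LAT KO arrays lay below the Y136F arrays.

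Isg20 is an exonuclease that degrades single-stranded RNA. At 1 week Isg20 read 1.24, 1.64 and 2.23 in WT, 3.24, 2.84 and 2.27 in LAT KO and 2.99, 3.85 and 2.7 in Y136F. At 4 weeks Isg20 read 2.06, 1.61 and 1.23 in WT, 2.95, 2.96 and 2.81 in LAT KO and 2.87, 2.53 and 2.5 in Y136F. All mutant arrays lay above WT at both times, and Isg20 rose over both times in LAT KO (1.18 ± 0.21, adjusted p = 0.0173, 0.0891 without the 2 arrays) and in Y136F (1.24 ± 0.21, adjusted p = 0.00578). Tetherin (Bst2), which holds budding virions on the cell, differed by 0.8 and 0.75 in LAT KO and by 0.82 and 0.19 in Y136F. Samhd1, which depletes nucleotides, differed by 0.12 to 0.41 over the 4 comparisons. Neither passed in any comparison.

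Schlafen genes act in growth control and antiviral restriction of T cells. At 1 week Slfn5 read 4.08, 4.42 and 4.42 in WT, 4.69, 5.29 and 4.86 in LAT KO and 5.25, 5.52 and 5.08 in Y136F. At 4 weeks Slfn5 read 4.18, 4.14 and 3.76 in WT, 5.01, 5.32 and 4.59 in LAT KO and 3.74, 4.07 and 4.02 in Y136F. The LAT KO arrays lay above WT at both times, and the Y136F arrays only at 1 week. LAT KO exceeded Y136F at 4 weeks by 1.03 ± 0.21 (adjusted p = 0.00735, 0.0362 without the 2 arrays), and Slfn5 rose in LAT KO over both times by 0.79 ± 0.15 (adjusted p = 0.019, 0.0373 without the 2 arrays). Slfn8 differed from WT by 0.93 in LAT KO and by -0.01 in Y136F at 4 weeks and passed in no comparison.

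PARP9, PARP12 and PARP14 belong to the ADP-ribosyltransferase family, and PARP12 restricts several RNA viruses. For the 3 measured members the median differences from WT were 0.56 in LAT KO and 0.84 in Y136F after 1 week. After 4 weeks they were 0.63 and 0.35. Over the mean of both times all 3 were positive in each mutant, and 2 in LAT KO and 2 in Y136F were called higher. The LAT KO medians without the 2 arrays were 0.59 and 0.53, and 1 was called higher. At 1 week Parp12 read -2.16, -1.86 and -1.65 in WT, -0.81, -0.6 and -1.07 in LAT KO and -0.75, -0.34 and -1.24 in Y136F. At 4 weeks Parp12 read -2.35, -2.53 and -2.92 in WT, -1.12, -0.76 and -1.07 in LAT KO and -1.47, -1.64 and -1.12 in Y136F. No mutant array overlapped WT at either time. Parp12 rose at 4 weeks in LAT KO (1.61 ± 0.23, 3.06-fold, adjusted p = 0.00945, 0.0553 without the 2 arrays) and in Y136F (1.19 ± 0.23, 2.28-fold, adjusted p = 0.00586). At 1 week Parp9 read 1.57, 1.7 and 1.62 in WT, 2.11, 2.35 and 2.1 in LAT KO and 2.47, 2.79 and 2.13 in Y136F. At 4 weeks Parp9 read 1.61, 1.34 and 1.2 in WT, 1.95, 2.2 and 1.88 in LAT KO and 1.75, 1.71 and 1.74 in Y136F. Parp9 was also free of overlap with WT and rose over both times by 0.59 ± 0.11 in LAT KO (adjusted p = 0.0228, 0.0812 without the 2 arrays) and 0.59 ± 0.11 in Y136F (adjusted p = 0.0101). Parp14 differed by 0.45 in LAT KO and by -0.03 in Y136F at 4 weeks and passed in no comparison. Other probes of Parp14 then gave 1.0 and 0.85 in LAT KO and 0.24 and 0.32 in Y136F.

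STAT2 is the subunit that ties ISGF3 to type I interferon. The median difference of the 6 signalling and nuclear regulators from WT was 0.63 in LAT KO and 0.61 in Y136F for week 1. For week 4 it was 1.18 and 0.43. Over the mean of both times all 6 were positive in each mutant, and 4 in LAT KO and 1 in Y136F were called higher. Without the 2 arrays the LAT KO medians were 0.62 and 1.05, and 3 were called higher. At 1 week Stat2 read -1.24, -1.4 and -0.55 in WT, -0.07, -0.22 and -0.35 in LAT KO and -0.64, 0.06 and -0.5 in Y136F. At 4 weeks Stat2 read -1.63, -1.4 and -2.16 in WT, -0.51, -0.16 and -0.46 in LAT KO and -0.91, -0.8 and -0.92 in Y136F. LAT KO arrays lay above WT at both times and Y136F arrays at 4 weeks. Stat2 rose in LAT KO at 4 weeks by 1.35 ± 0.23 (2.55-fold, adjusted p = 0.0277, 0.144 without the 2 arrays), and over both times in Y136F by 0.78 ± 0.17 (adjusted p = 0.0223). In Y136F at 4 weeks its difference was 0.86 ± 0.23 (adjusted p = 0.0524).

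Helz2 and Znfx1 are helicase-like proteins, the first a nuclear coactivator and the second an RNA sensor at mitochondria. At 1 week Helz2 read 0.86, 0.97 and 1.19 in WT, 1.16, 1.63 and 1.29 in LAT KO and 1.56, 1.56 and 1.44 in Y136F. At 4 weeks Helz2 read 0.32, 0.36 and -0.22 in WT, 1.21, 1.74 and 1.14 in LAT KO and 0.36, 0.54 and 0.77 in Y136F. Helz2 rose in LAT KO at 4 weeks by 1.21 ± 0.19 (adjusted p = 0.0176, 0.0601 without the 2 arrays) and was then higher in LAT KO than in Y136F by 0.81 ± 0.19 (adjusted p = 0.0211, 0.119 without the 2 arrays). At 1 week Znfx1 read -0.35, -0.61 and 0.05 in WT, 0.48, 0.55 and 0.07 in LAT KO and 0.06, 0.26 and 0.28 in Y136F. At 4 weeks Znfx1 read -0.85, -0.62 and -1.03 in WT, 0.25, 0.58 and 0.24 in LAT KO and -0.68, -0.47 and 0.0039 in Y136F. Znfx1 rose in LAT KO at 4 weeks by 1.19 ± 0.2 (adjusted p = 0.0237, 0.133 without the 2 arrays), and its Y136F arrays overlapped WT.

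Xaf1 antagonises inhibitors of apoptosis. At 1 week Xaf1 read 1.45, 1.91 and 1.97 in WT, 2.31, 2.82 and 1.98 in LAT KO and 2.73, 2.86 and 2.22 in Y136F. At 4 weeks Xaf1 read 1.63, 0.96 and 0.62 in WT, 2.12, 2.46 and 2.16 in LAT KO and 1.78, 1.32 and 1.73 in Y136F. It rose in LAT KO over both times by 0.88 ± 0.18 (adjusted p = 0.0409, 0.157 without the 2 arrays), and its Y136F value of 0.68 ± 0.18 did not pass (adjusted p = 0.0655). At 1 week Phf11d read 2.11, 2.3 and 2.54 in WT, 2.87, 3.24 and 2.91 in LAT KO and 2.87, 3.5 and 2.82 in Y136F. At 4 weeks Phf11d read 2.35, 2.29 and 2.18 in WT, 2.76, 2.98 and 2.65 in LAT KO and 2.59, 2.22 and 2.38 in Y136F. Phf11d lay above WT in both mutants at 1 week and only in LAT KO at 4 weeks, and it passed in no comparison. Ifi35 differed by 0.51 in LAT KO and by 0.24 in Y136F at 4 weeks.

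Of the surface and secreted members, Sca-1 (Ly6a) is a glycolipid-anchored marker of activated T cells. For the 3 surface and secreted members the median differences from WT were 0.48 in LAT KO and 0.67 in Y136F after 1 week. After 4 weeks they were 0.55 and 0.58. Over the mean of both times 3 were positive in LAT KO and 2 in Y136F, and 1 and 2 were called higher. The LAT KO medians without the 2 arrays were 0.53 and 0.5, and 0 were called higher, with all 3 still positive over both times. At 1 week Ly6a read 3.86, 3.97 and 3.99 in WT, 4.51, 4.66 and 4.28 in LAT KO and 4.59, 4.84 and 4.75 in Y136F. At 4 weeks Ly6a read 4.02, 4.04 and 3.64 in WT, 4.54, 4.56 and 4.26 in LAT KO and 4.67, 4.39 and 4.37 in Y136F. Mutant and WT arrays did not overlap at either time. Ly6a rose in Y136F at 4 weeks by 0.58 ± 0.15 (adjusted p = 0.0469), beside 0.55 ± 0.15 in LAT KO (adjusted p = 0.24). The Y136F call of Ly6a at 4 weeks passed in 9 of 20 settings, with adjusted p up to 0.559. At 1 week Lgals3bp read 1.78, 2.28 and 1.84 in WT, 2.31, 2.82 and 2.21 in LAT KO and 2.62, 2.77 and 2.5 in Y136F. At 4 weeks Lgals3bp read 1.93, 1.25 and 0.92 in WT, 2.07, 2.34 and 2.15 in LAT KO and 2.1, 1.87 and 2.11 in Y136F. Lgals3bp, a secreted galectin ligand, rose in Y136F over both times by 0.66 ± 0.15 (adjusted p = 0.0343), beside 0.65 ± 0.15 in LAT KO (adjusted p = 0.112). Ly6e, a membrane protein of the same family as Ly6a, differed from WT by -0.23 to 0.13 over the 4 comparisons.

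TAP1 is a subunit of the peptide transporter, and PSMB8 and PSMB9 are catalytic subunits of the immunoproteasome. The median difference of the 3 antigen processing genes from WT was 0.35 in LAT KO and 0.28 in Y136F for week 1. For week 4 it was 0.25 and 0.31. Over the mean of both times all 3 were positive in each mutant, and 0 in LAT KO and 0 in Y136F were called higher. Without the 2 arrays the LAT KO medians were 0.13 and 0.3, and 0 were called higher, with all 3 still positive over both times. At 1 week Tap1 read 0.13, 0.07 and 0.48 in WT, 0.93, 0.66 and 0.12 in LAT KO and 0.66, 0.7 and 0.29 in Y136F. At 4 weeks Tap1 read 0.21, -0.2 and -0.49 in WT, 0.54, 0.41 and 0.6 in LAT KO and 0.44, 0.28 and 0.66 in Y136F, with both mutants above WT. Its 4-week differences were 0.68 ± 0.21 in LAT KO and 0.62 ± 0.21 in Y136F (adjusted p = 0.291 and 0.133). At 1 week Psmb8 read 4.57, 4.62 and 4.88 in WT, 5.51, 5.09 and 4.54 in LAT KO and 4.96, 4.98 and 4.95 in Y136F. At 4 weeks Psmb8 read 5.03, 4.75 and 5.06 in WT, 5.18, 5.09 and 5.31 in LAT KO and 5.27, 5.17 and 5.27 in Y136F. LAT KO replicate 1 of 1 week was the highest of all arrays for Psmb8, and LAT KO replicate 3 the lowest of the 1-week arrays. Psmb8 differed by 0.36 and 0.25 in LAT KO and 0.28 and 0.3 in Y136F, and Psmb9 by 0.05 in LAT KO and by 0.31 in Y136F at 4 weeks. No antigen processing member passed in any comparison.

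The interferon-inducible GTPases attack the vacuoles of intracellular pathogens and respond strongly to interferon gamma. For the 4 GTPases the median differences from WT were 0.47 in LAT KO and 0.38 in Y136F after 1 week. After 4 weeks they were 0.34 and 0.32. Over the mean of both times 3 were positive in LAT KO and 4 in Y136F, and 1 in each mutant was called higher. The LAT KO medians without the 2 arrays were 0.22 and 0.34, and 0 were called higher, with 3 positive over both times. At 1 week Irgm1 read 2.34, 2.54 and 2.53 in WT, 2.97, 3.24 and 2.76 in LAT KO and 3.12, 3.26 and 2.83 in Y136F. At 4 weeks Irgm1 read 2.45, 2.05 and 1.91 in WT, 2.97, 3.11 and 2.69 in LAT KO and 2.44, 2.54 and 2.63 in Y136F. Both mutants lay above WT at 1 week, LAT KO did so at 4 weeks, and Y136F then overlapped WT. Irgm1 rose over both times in LAT KO (0.65 ± 0.12, adjusted p = 0.019, 0.0831 without the 2 arrays) and in Y136F (0.5 ± 0.12, adjusted p = 0.04). Another probe of Irgm1 gave 0.32 in LAT KO and -0.14 in Y136F at 4 weeks, where the main probe gave 0.79 and 0.4. Igtp differed from WT by 0.37 in LAT KO and by 0.19 in Y136F at 4 weeks, and Gbp2 by 0.3 and 0.53. At 1 week Gbp3 read -1.36, -1.55 and -0.86 in WT, 0.03, -1.61 and -1.91 in LAT KO and -1.4, -0.5 and -1.64 in Y136F, with LAT KO replicate 1 above the other arrays of that time. At 4 weeks Gbp3 read -0.4, -0.67 and -0.98 in WT, -0.82, -1.45 and -0.51 in LAT KO and -0.38, -0.68 and -0.27 in Y136F, and the 3 groups overlapped. None of Igtp, Gbp2 and Gbp3 passed in any comparison.

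Ifi44 and Rtp4 are induced by interferon and have less settled roles. At 1 week Ifi44 read -1.92, -0.35 and -0.08 in WT, 0.13, 0.53 and 0.38 in LAT KO and 0.69, 1.31 and -0.11 in Y136F, with WT replicate 1 far below the rest. At 4 weeks Ifi44 read -0.23, -0.62 and -1.02 in WT, 0.37, 0.06 and 0.2 in LAT KO and 0.69, -0.44 and -0.02 in Y136F, and LAT KO stood above WT at both times. At 1 week Rtp4 read 3.06, 3.59 and 3.66 in WT, 3.78, 4.11 and 3.55 in LAT KO and 3.95, 4.38 and 3.97 in Y136F. Rtp4 at 4 weeks read 3.49, 3.0 and 1.95 in WT, 3.8, 3.89 and 3.77 in LAT KO and 3.57, 3.13 and 3.27 in Y136F, and WT replicate 3 was lowest. Ifi44 differed by 0.83 ± 0.41 in LAT KO and by 0.7 ± 0.41 in Y136F at 4 weeks, and Rtp4 by 1.01 ± 0.28 and 0.51 ± 0.28. Neither passed in any comparison.

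Of the 46 members, 38 had a positive difference from WT in all 4 comparisons of a mutant with WT at 1 time. The other 8 had at least 1 negative value, and none of those passed. They were Ifitm1 in 3 comparisons, Ifitm2 (-0.21) and Gbp3 (-0.24) in LAT KO at 4 weeks, Ly6e in both mutants at 4 weeks (-0.05 in LAT KO and -0.23 in Y136F), and Ifit2 (-0.13), Slfn5 (-0.08), Parp14 (-0.03) and Slfn8 (-0.01) in Y136F at 4 weeks. 14 members had further probes, 18 in all. Their differences had the sign of the main probe for 17 of 18 in LAT KO at each time, and for 16 and 15 of 18 in Y136F at 1 and 4 weeks. In Y136F at 4 weeks the sign differed for the other probes of Parp14 (0.24 and 0.32) and of Irgm1 (-0.14).

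Setting the mutants against each other removed the WT arrays from the comparison. At 1 week no member differed between LAT KO and Y136F (smallest adjusted p of 0.856, for Ddx58), and no feature of the whole array was called higher. None of the 46 had an unadjusted p under 0.05 there, where 2.06% of all features had one with LAT KO higher and 3.64% with LAT KO lower, and none had groups that did not overlap, against 4.06% of all features with LAT KO higher and 5.74% with LAT KO lower. The median difference was -0.09, with 11 of 46 positive beside 56.4% of all features. The median without the 2 arrays was -0.11, with 14 positive beside 62.2%, and none was called. At 4 weeks the median was 0.44, beside 0.03 over all features, with 38 of 46 positive beside 54.6%. The 4-week median without the 2 arrays was 0.33, with 39 positive beside 61.9%. Oas2, Oasl1, Usp18, Ifit2, Slfn5, Helz2 and Adar were called higher in LAT KO, where 1.05% of all features were. Ifitm2 was called lower, where 2.34% were. The groups did not overlap for 28 members with LAT KO higher and for 3 with LAT KO lower (Ifitm1, Ifitm2 and Psmb9), against 12.7% and 9.62% of all features. The number of calls was 2 (Ifitm2 and Slfn5) without both arrays that went against their sex label, 1 without LAT KO replicate 2, 3 without Y136F replicate 1, 2 without Y136F replicate 2 and 1 with the labelled sex as a term.

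WT cells themselves read lower at 4 weeks than at 1 week for 37 of 46 members, with a median of -0.32 beside 0.21 over all features. Limma called no member for this difference (the smallest adjusted p was 0.11, for Helz2), and 0% of all features were called lower. With the 2 LAT KO arrays left out 2 members were called lower. The WT differences were the same in that fit, which changed only the shared estimate of the spread. Its share of all features called is not given here. Before adjustment 15 members had p under 0.05 and a lower value, where 8.62% of all features did, and 2 a higher one, where 10.8% did. The WT groups also differed in labelled sex, with 2 of 3 mice female at 1 week and none at 4 weeks. The male WT mouse of 1 week, replicate 3, had a member mean of -0.078, above the -0.341, -0.604 and -1.01 of the 4-week WT mice. This is 1 array, and its sex-linked gene Xist read -3.98, beside -7.03, -7.37 and -7.99 in the 4-week WT mice. With the labelled sex as a term the median was -0.33 and no member was called. That term rests partly on an array that went against its label, and the part of sex in the WT difference was not otherwise tested. The change of the LAT KO difference between 1 and 4 weeks had a median of 0.29 over the members, and that of Y136F -0.25. Of these changes only the one of Ifitm2 in Y136F passed. The LAT KO change had a median of 0.17 without the 2 arrays.

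The upstream genes of the pathway were taken from lists made for this purpose. Irf7, the factor that amplifies type I interferon responses, read at 1 week 1.15, 1.86 and 2.35 in WT, 2.91, 3.47 and 2.74 in LAT KO and 3.06, 3.58 and 2.82 in Y136F. At 4 weeks Irf7 read 1.64, 1.14 and 0.48 in WT, 2.83, 3.0 and 2.89 in LAT KO and 1.88, 1.63 and 1.94 in Y136F. At 1 week all mutant arrays lay above all WT arrays, and at 4 weeks the LAT KO arrays lay above both other groups, which overlapped. Irf7 rose in LAT KO at 4 weeks by 1.82 ± 0.3 (3.54-fold, adjusted p = 0.0178, 0.0954 without the 2 arrays) and over both times in Y136F by 1.05 ± 0.21 (adjusted p = 0.0159). At 4 weeks Irf9 differed by 0.5 ± 0.17 in LAT KO (adjusted p = 0.349) and by 0.08 ± 0.17 in Y136F (adjusted p = 0.823), and neither passed. Among the receptor chains, Ifnar1 differed by 0.26 and -0.12, Ifnar2 by 0.08 and 0.01, and Ifngr1 by -0.12 and 0.27, in LAT KO and Y136F at 4 weeks. The feedback inhibitor Socs1 differed by 0.19 and 0.88. Of 5 measured receptor genes and 12 sensors of the induction pathway, none passed in either mutant at either time.

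**Figure D5:**
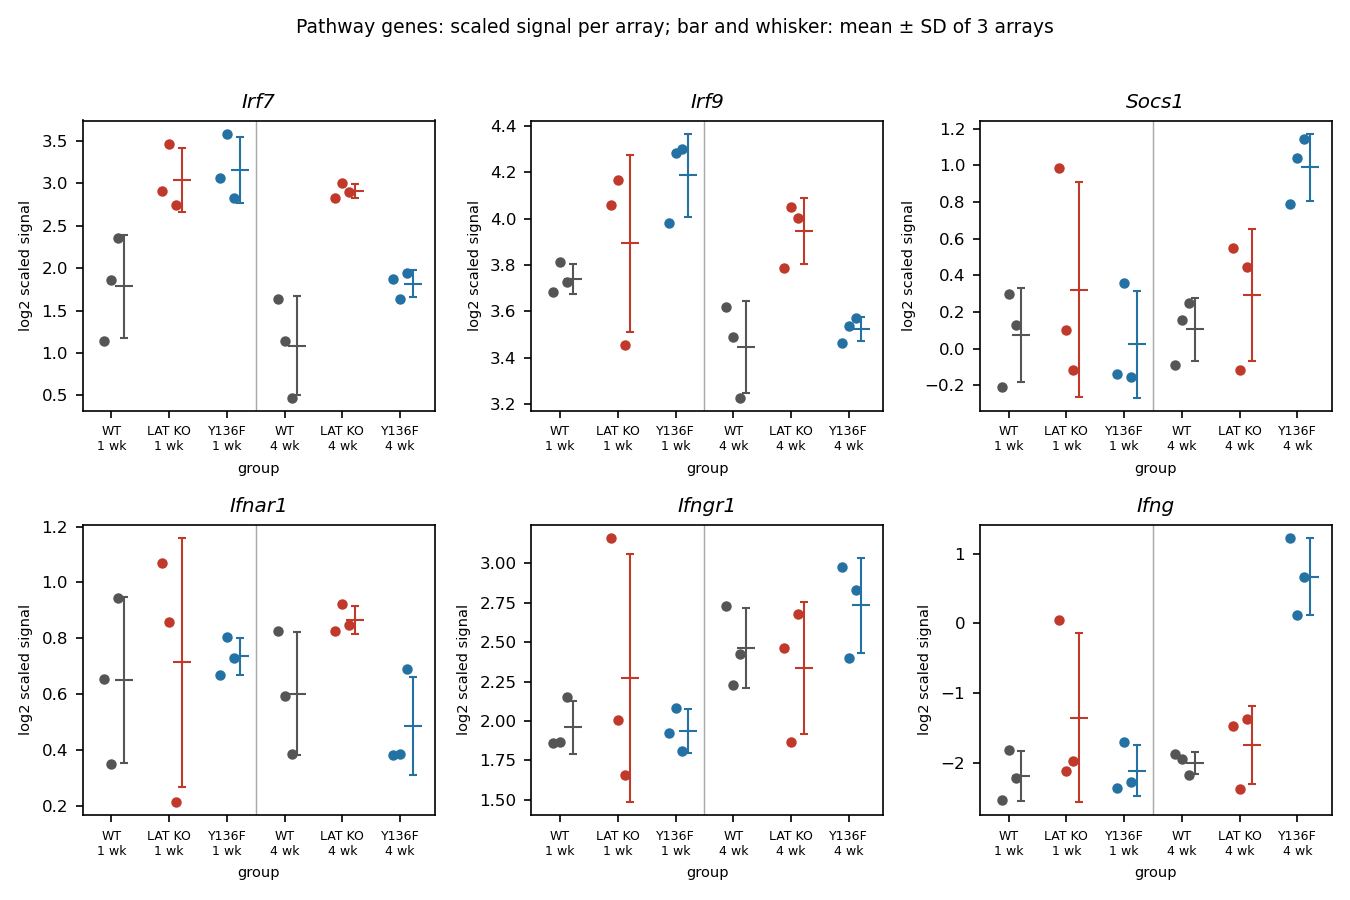
Log2 scaled signal of 6 pathway genes on each of the 18 arrays, WT in grey, LAT KO in red and Y136F in blue, with the mean and SD of 3 arrays. Irf7 lies above WT in both mutants at 1 week and in LAT KO at 4 weeks, and Ifng is high on the 3 Y136F arrays of 4 weeks and on LAT KO replicate 1 of 1 week.

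Ifng, the gene of interferon gamma, read at 1 week -2.53, -1.82 and -2.22 in WT, 0.04, -2.12 and -1.98 in LAT KO and -2.36, -1.7 and -2.28 in Y136F. At 4 weeks Ifng read -1.88, -1.94 and -2.18 in WT, -1.47, -2.38 and -1.37 in LAT KO and 1.23, 0.13 and 0.66 in Y136F. The 3 Y136F arrays of 4 weeks lay above all other arrays. Ifng rose there by 2.67 ± 0.44 (6.38-fold, adjusted p = 0.00205) and was the 1 of 8 measured ligand genes to pass, where 2.47% of all features were called higher. LAT KO was lower than Y136F in Ifng by -2.42 at 4 weeks (adjusted p = 0.00393, 0.000486 without the 2 arrays). LAT KO replicate 1 of 1 week, one of the arrays that went against their sex label, was the highest of the 1-week arrays for Ifng, Ifngr1 (3.16), Socs1 (0.99), Gbp2 (2.13) and Gbp3 (0.03).

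Markers of activated cells moved with Y136F at 4 weeks. Of 19 memory and effector T cell genes, Ifng among them, 10 were called higher in Y136F at 4 weeks and none in LAT KO, also without the 2 arrays. Beside the Y136F counts of this paragraph stand 2.47% of all features called higher and 0.918% called lower at 4 weeks. The log2 of the summed signal of the 17 genes with a value on every array was 7.77 to 7.97 on the Y136F arrays of 4 weeks, 7.01 to 7.24 on the WT and 6.56 to 7.15 on the LAT KO arrays of that time. From this list Gzmb rose by 3.81 ± 0.54 (adjusted p = 0.000693) and Ccr2 by 2.53 ± 0.37 (adjusted p = 0.000751). Of 14 naive CD4 T cell genes, 6 had positive and 8 negative differences there (median -0.073), with 1 called higher and 2 lower. Ccr7, a receptor for homing to lymph nodes, changed by -1.36 (adjusted p = 0.00011), and Cd5, a receptor that tempers T cell signals, rose by 0.65. Of 10 natural killer cell genes 2 were called higher and 1 lower in Y136F at 4 weeks. In LAT KO 0 were called then, 1 was called higher then without the 2 arrays, and 1 over the mean of both times. The granzyme gene Gzma of this list rose by 6.64 in Y136F at 4 weeks. It read then -4.15, -4.42 and -3.59 in WT, -1.61, -2.28 and -1.6 in LAT KO and 2.34, 2.76 and 2.65 in Y136F. At 1 week too its arrays of both mutants lay above all WT arrays. The log2 summed signal at 4 weeks was taken over the 6 natural killer cell genes with a value on every array. It was 3.61 to 3.80 in Y136F, 2.81 to 2.98 in WT and 2.63 to 3.10 in LAT KO. Of 12 myeloid genes S100a8 was called higher in Y136F at 4 weeks (2.99) and none lower. Between the mutants 3 were called lower in LAT KO, beside 2.34% of all features, and none without the 2 arrays. The log2 sum over 9 of them was 2.76 to 3.49 in Y136F, 2.83 to 2.99 in WT and 2.75 to 3.0 in LAT KO. Ifitm2 and Ifng were high in the same group, and the part of these cells in those values was not tested. For the 11 of 13 measured B cell markers with a value on every array, the log2 summed signal was 5.17 on LAT KO replicate 1 of 1 week and 2.70 to 3.83 on the other 1-week arrays. At 4 weeks it was 3.79 to 4.08 in WT, 2.85 to 4.60 in LAT KO and 4.17 to 4.98 in Y136F. Gene by gene, 2 of the 13 had positive differences from WT in LAT KO at 4 weeks and 5 in Y136F, with medians of -0.11 and -0.11. The plasmacytoid dendritic cell list, whose genes are known in the main producers of type I interferon, had no called gene of 10 in either mutant at either time. The log2 sum at 4 weeks was taken over the 8 of them with a value on every array. It was 2.94 to 3.16 in WT, 3.28 to 3.33 in LAT KO and 2.88 to 3.07 in Y136F. Bst2 is on this list and also a member, and bright genes weigh most in a sum. Gene by gene, 7 of the 10 had negative differences from WT in LAT KO at 4 weeks and 8 in Y136F. The medians were -0.19 and -0.3, beside -0.17 and -0.19 over all features. The part of any of these cells in the member values was not tested.

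Of 74 further interferon-stimulated genes that were measured, 69 in LAT KO and 66 in Y136F had positive differences at 1 week, beside 41.6% and 33.3% of all features. None was called there in either mutant. At 4 weeks 57 were positive in LAT KO and 53 in Y136F, beside 34.7% and 32.3% of all features. Their medians were 0.38 and 0.12, beside -0.17 and -0.19 over all features. With the 2 arrays left out 63 were positive in LAT KO at 1 week and 61 at 4 weeks, beside 54% and 37% of all features. None was called at either time in that fit. Called higher in Y136F at 4 weeks were Trim26, Ube2l6, Casp1, Casp4, Mlkl, Tmem140 and Plac8, where 2.47% of all features were. Casp1 (1.71 ± 0.35, adjusted p = 0.00927) encodes the inflammasome protease, and Ube2l6 (1.43 ± 0.31, adjusted p = 0.0136) the enzyme that hands ISG15 to its targets. Apol9b and Ly6c1 were called lower in Y136F at that time (-1.67 and -0.79), where 0.918% of all features were. In LAT KO at 4 weeks Apol9b was called lower (-0.93 ± 0.15, adjusted p = 0.0178, 0.0579 without the 2 arrays) and no gene of this list was called higher. The shares of all features there were 0.0412% lower and 0.0571% higher. Over both times LAT KO was called higher for Oas1g, Tor3a, Ube2l6, Ly6c1 and Trafd1 and lower for Apol9b, beside 0.188% and 0.127% of all features. Without the 2 arrays Oas1g, Ube2l6 and Apol9b passed. Oas1g, a further oligoadenylate synthetase, rose by 1.25 ± 0.24 in LAT KO (adjusted p = 0.0318, 0.0423 without the 2 arrays) and 1.06 ± 0.23 in Y136F (adjusted p = 0.0252).

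In Y136F over both times, 15 of these 74 were called higher: Oas1g, Ifi27l2a, Gbp4, Trim26, Trim34a, Tor3a, Ube2l6, Cxcl10, Cd274, Trafd1, Casp1, Casp4, Mlkl, Tmem140 and Plac8. Apol9b alone was called lower. In that comparison 1.24% of all features were called higher and 0.543% lower. Cxcl10, a chemokine for activated T cells, read -3.1, -3.83 and -5.03 in WT and -1.84, -2.8 and -2.62 in Y136F at 4 weeks and rose over both times by 1.77 ± 0.41 (adjusted p = 0.0328). Between the mutants at 4 weeks, Trim25, Trim30d, Lgals9, Apol9b and Ly6c1 were called higher and Casp1 and Casp4 lower in LAT KO, beside 1.05% and 2.34% of all features. Apol9b, Ly6c1 and Casp4 passed without the 2 arrays. Ly6c1, a surface glycoprotein, showed the largest of these differences (1.63 ± 0.2, adjusted p = 0.000226, 0.000889 without the 2 arrays). The Y136F difference from WT changed with time for Apol9b (-0.99) and Ly6c1 (-1.81), where 0.127% of all features were called lower. Of 18 signalling genes, Irf7 in LAT KO (not without the 2 arrays) and Jak2 and Ptpn11 in Y136F were called higher at 4 weeks, with Jak2 differing by 0.8 and Ptpn11 by 1.02. Beside them stand 0.0571% of all features in LAT KO and 2.47% in Y136F. Over both times Ptpn6, a phosphatase that restrains receptor signals, was called lower in LAT KO (-0.61, with and without the 2 arrays) and in Y136F (-0.44), and Jak2 was called higher in Y136F (0.45).

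Arrays lay on 5 slides, each scanned once, and mutant and WT arrays that shared a slide were compared directly. No pair of these holds either of the 2 arrays. At 1 week the LAT KO array on slide 1 lay above its WT partner for 34 of 46 members, beside 55.5% of all features, with a median of 0.24 beside 0.074. This LAT KO array, replicate 3, is the one with 7888 outlier spots. The Y136F arrays on slides 1, 2 and 5 did so for 39, 43 and 44, beside 36.3%, 33% and 53.2% of all features. The Y136F medians were 0.49, 1.09 and 0.72, beside -0.14, -0.25 and 0.026. At 4 weeks the LAT KO arrays on slides 3 and 4 lay above WT for 44 and 42 members, beside 41.2% and 41.7% of all features, with medians of 1.14 and 0.51 beside -0.12 and -0.059. The Y136F arrays on slides 2, 3 and 4 lay above WT for 35, 45 and 32, beside 36.3%, 36.5% and 45.9%, with medians of 0.18, 0.75 and 0.17 beside -0.14, -0.32 and -0.035. Between the mutants at 1 week, LAT KO was higher for 9 of 46 members on slide 1, beside 54.3% of all features, with a median of -0.33 beside 0.081. At 4 weeks it was higher for 35 of 46 on slide 3, beside 69.9% of all features, and for 35 on slide 4, beside 46%. The medians were 0.29 and 0.33, beside 0.21 and -0.032.

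Among the 37 measured members with a promoter window, 18 held the GAAA pair and 19 did not. The median differences of the 2 sets from WT at 4 weeks were 1.02 and 0.83 in LAT KO and 0.32 and 0.41 in Y136F. At 1 week they were 0.68 and 0.59 in LAT KO and 0.94 and 0.67 in Y136F. Those of LAT KO without the 2 arrays were 0.89 and 0.74 at 4 weeks and 0.71 and 0.61 at 1 week. The ranges of the 2 sets overlapped in each comparison. Of the genes whose windows are printed, Oas3 with 1 match was called in both mutants at 4 weeks, Ifitm2 with 1 match in Y136F alone, and Isg15 with 3 matches and Ifit1 with 2 in neither.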

How the data were processed

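RNA of sorted naive CD4+ T cells was measured on 18 Agilent 1-colour arrays, with 3 mice in each of 6 groups named in the sample labels. The deposited files hold spot intensity values from Agilent Feature Extraction, per the file headers version 10.5.1.1, with background subtracted and spatial trends removed in the processed intensity. The authors' deposited value table holds log2 values whose normalization is not given in the sources used here, and it served only as an alternative.

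Control spots and outlier spots were left out. The log2 of the processed intensity was taken relative to the 75th percentile of each array, probes well above background on at least 3 arrays were kept, and spots of a probe were averaged. Probes were named through RefSeq accessions, and the brightest probe stood for a gene. One linear model over the 6 groups was fitted to 31563 features with limma 3.58.1 in R 4.3.3 (empirical Bayes with an intensity trend and 12 residual degrees of freedom), and p-values were adjusted by Benjamini and Hochberg over all features at a threshold of 0.05. The p-values measure the spread between these mice. The WT arrays of a time served both mutants. The number of arrays limits the precision.

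Members and lists were chosen with earlier results of these data known, so no pattern counts as independent support. Array values are given for members that passed in any comparison and for a member of each role, and every other member is given by its differences. Alternatives were normexp background correction (offset 50, run on the median signal because the mean signal planned for it was not in the files), quantile normalization, the deposited value table, outlier spots kept, no filter, all probes of a gene averaged, no intensity trend, slide and sex terms, a replicate block and each array left out. The fit was also run on simulated data with known changes, whose means and spreads were taken from these arrays. The outcome of that run is not given here. Promoter sequences are from RefSeq, build GRCm38.p6.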

Additional observations from a re-analysis of the deposited data

Results flagged for a closer look

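The difference of Y136F from WT in Ifitm2 was not the same at the 2 times: it changed by 1.67 on the log2 scale from 1 to 4 weeks, with an adjusted p of 0.0127 in limma's test of the change itself. With the labelled sex as a term the adjusted p was 0.0672 and the change did not pass. Ifitm2 in LAT KO lay above WT at 1 week and below it at 4 weeks by fitted value, a change of -0.5537 that did not pass that test, and its arrays overlapped WT at both times.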

How the results depend on the processing

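The 222 recalculated median differences of the members moved by less than the spread between arrays. The sign turned for LAT KO minus Y136F at 1 week alone, without LAT KO replicate 3 or Y136F replicate 2. Of the recalculated counts of members, 256 were within 1.5 times the reported one and 40 were not. The exceptions follow, as numbers of members called. In LAT KO at 4 weeks (7 reported) they were 1 without the intensity trend, 0 without both arrays that went against their sex label, and 0 to 10 when 1 array was left out. For Y136F minus WT at 1 week (0 reported) the number was 1 with slide as a fixed term. For Y136F at 4 weeks (5) it was 2 with the labelled sex as a term, 3 with the sex read from the arrays, and 3 to 9 with 1 array left out, and the number whose arrays did not overlap WT (15) ran from 15 to 29. Between the mutants at 4 weeks (8) it was 1 with labelled sex, 2 without both contradicting arrays, and 1 to 9 with 1 array left out. For the mean of both times in LAT KO (21) it was 9 with slide fixed, 9 with only the groups compared, 9 without the trend, 13 without both arrays, and 9 to 25 with 1 array left out. For that mean in Y136F (15) it was 1 with labelled sex, 6 with sex read from the arrays, 9 without the trend, and 8 to 19 with 1 array left out. For WT over time (0) it was 2 without both arrays, and for the change of Y136F with time (1) it was 0 with labelled sex, 3 with sex read from the arrays and 2 with only the groups compared. The term for sex read from the arrays was chosen after seeing the data.

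The Y136F difference of Ifit3 at 4 weeks ran from -0.1352 to 0.4804 with 1 array left out, turning negative without WT replicate 3. With the replicate block, 7 members were called in LAT KO and 5 in Y136F at 4 weeks, 10 between the mutants at 4 weeks, 23 for the LAT KO mean and 15 for the Y136F mean. Deviations of same-numbered arrays correlated from -0.45 to 0.525 between groups. Arrays with different numbers were not compared in this way, so whether the numbers pair the mice was not tested. Quantile normalization moved the median over all features from -0.171 to -0.0289 in LAT KO and from -0.188 to -0.0606 in Y136F at 4 weeks, and from 0.207 to 0.0272 for WT over time, while the member medians were 0.94, 0.40 and -0.40 under it. Ifitm2 and Ifitm3 were called in Y136F at 4 weeks, and Ifitm3, Oas2, Oas3, Oasl2, Parp12, Rsad2 and Stat2 for the LAT KO mean, in every alternative run. Groups of 3, labelled sex that differs between genotypes and, by the sample titles, Cre in the mutants alone limit the comparisons.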
